A study of Mus musculus with 12 samples.

Results

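Ms4a4a, Ms4a4c, Ms4a6b, Ms4a6c, Ms4a6d, Ms4a7 and Ms4a8a are members of the membrane-spanning 4A gene family that are known from macrophages or other white blood cells. They were taken from a written list of 7 symbols, each of which had 1 probe set on the array, and were followed through all groups of the study. They are 7 of the 19 Ms4a genes on the array and 7 of the 19938 genes with a probe set of their own. The 7 genes were chosen by their levels in these groups, with earlier results of these arrays known, so the levels and differences of the 7 genes are a description and carry no p-value. How many of them a fit over all genes called is likewise a description. Tests with a p-value are given only for genes outside the list.

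The study asked how macrophages respond when they take up red blood cells (RBC) of mice on different diets. High-fat macrophages and chow macrophages came from C57BL/6 mice kept for 12 weeks, starting at 6 weeks of age, on a high-fat diet or on chow. All were elicited with thioglycollate, an irritant that draws monocytes into the peritoneal cavity, and were cultured with RBC of high-fat-fed mice, with RBC of chow-fed mice, or without RBC. Each of the 6 combinations had 2 Affymetrix Mouse Gene 1.0 ST arrays, numbered as animals in the labels, 12 in all. The labels do not say whether the cells of one animal were divided among the RBC conditions, and the arrays of a group are its only measure of error. The cells are inflammatory recruits fed RBC in a dish and are no measure of resident macrophages or of clearance in the animal.

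MS4A proteins cross the cell membrane several times and are thought to organise or modify the signalling of receptors beside them. The best known member, Ms4a1, encodes CD20 of B cells, and Ms4a2 encodes the beta chain of the high-affinity receptor for IgE of mast cells and basophils. Ms4a4a encodes a surface protein of macrophages that associates with the fungal receptor Dectin-1 and is found on alternatively activated cells. Ms4a6b was studied in mouse T cells, where its protein associates with the co-stimulatory receptor GITR, and Ms4a6d was described in mouse macrophages as a partner of the receptor VSIG4. Ms4a7 is expressed by macrophages and microglia, and Ms4a8a was described in mouse macrophages under glucocorticoids and alternative activation.

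All 19 Ms4a genes lie on chromosome 19, and the promoters of Ms4a6c and Ms4a6b show how closely 2 of the listed genes are related. RefSeq windows of 250 bases before to 50 bases after the start of transcription (GRCm38.p6) were found for 6 of the 7 genes. Ms4a6d had no window and was not compared. The windows of Ms4a6c (chr19:11469118-11469417, + strand) and Ms4a6b (chr19:11518309-11518608, + strand) are printed. They hold the longest identical stretch between any of the 6 genes with a window, 48 bases, given in capitals.
Ms4a6c: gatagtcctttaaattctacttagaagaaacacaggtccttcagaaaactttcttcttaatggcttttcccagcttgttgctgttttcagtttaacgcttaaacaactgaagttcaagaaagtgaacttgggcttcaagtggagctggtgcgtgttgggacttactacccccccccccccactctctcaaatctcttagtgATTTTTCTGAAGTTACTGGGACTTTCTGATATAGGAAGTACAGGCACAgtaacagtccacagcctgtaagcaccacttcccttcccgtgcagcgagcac
Ms4a6b: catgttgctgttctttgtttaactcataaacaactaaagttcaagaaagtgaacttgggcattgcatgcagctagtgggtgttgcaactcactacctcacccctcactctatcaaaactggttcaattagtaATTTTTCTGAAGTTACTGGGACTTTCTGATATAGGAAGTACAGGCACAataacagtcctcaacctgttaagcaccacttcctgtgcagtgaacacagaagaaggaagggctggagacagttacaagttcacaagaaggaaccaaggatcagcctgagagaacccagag
The stretch begins 49 bases before the start of Ms4a6c and 118 bases before the start of Ms4a6b. Of 32851 mouse promoter windows, 2 hold it, those of these genes. Any other pair of the 6 genes with a window shared a stretch of at most 10 bases. The interferon-stimulated response element (GAAA, any 2 bases and GAAA again) was in 0 of the 6 genes' windows on either strand and in 3.44% of all windows. The gamma-activated site TTCNNNGAA was in 0 of 6 and in 8.3% of all windows. The PU.1 core GAGGAA was in those of Ms4a4c and Ms4a7, against 28.3% of all windows, and the AP-1 site TGANTCA in those of Ms4a7 and Ms4a8a, against 7.81%. Ms4a7 had windows starting at 11336097, with the PU.1 core at position 44 after the start of transcription, and at 11334646, with the AP-1 site. The listed genes are counted by gene and the shares by window, so they are not like measures. These motifs were chosen after the values were seen, and a missing match says only that those letters are not in the window.

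The deposited values are log2 signals, one per probe set and array, and each step of 1 is a doubling of signal. Differences are in log2 units ± SE from limma, fitted to all 19938 genes with 1 mean for each of the 6 groups, and a gene is called where the Benjamini-Hochberg adjusted p over all genes is below 0.05. The median signal of an array lay between 4.84 and 4.96. Cd68, a lysosomal protein, and Lyz2, lysozyme, lay between 12.09 and 12.45 on all arrays. Adgre1, a surface marker of macrophages, lay between 8.92 and 10.21, and Csf1r, the receptor for the macrophage growth factor, between 9.77 and 10.69. Signal over background is unknown, since detection calls were not analysed here, and probe sets of close relatives may share signal. The signals are those of whole cultures, in which fewer cells of a type and less RNA per cell cannot be told apart.

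High-fat and chow macrophages were compared first without RBC, where the largest differences of the listed genes lay. Ms4a6b had signals of 3.83 and 3.37 in high-fat macrophages and of 7.58 and 7.15 in chow macrophages. Both high-fat arrays lay far below both chow arrays, and the difference was -3.77 ± 0.19, a 13.6-fold lower signal, the 13th lowest of 19938 genes. Ms4a4a had 4.14 and 3.62 in high-fat macrophages, against 7.50 and 6.89 in chow macrophages. The arrays were again far apart, with a difference of -3.32 ± 0.19 or 9.96-fold. Ms4a6c is the closest to Ms4a6b by promoter among the 6 genes with a window. It had 6.26 and 6.23 in high-fat macrophages and 8.91 and 8.87 in chow macrophages. Replicates of either diet differed little beside the difference of -2.65 ± 0.14, which is 6.27-fold. Ms4a4c had 3.69 and 3.88 in high-fat macrophages and 6.24 on both arrays of chow macrophages, a difference of -2.45 ± 0.17 or 5.48-fold. In high-fat macrophages without RBC, Ms4a6b, Ms4a4a and Ms4a4c lay below the median signal of every array. Ms4a4a and Ms4a4c did so with RBC too. Whether these signals were above background was not tested, so the size of their differences and responses is uncertain.

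The most strongly expressed genes of the list differed less. Ms4a7 had 8.66 and 8.63 in high-fat macrophages and 10.00 and 9.74 in chow macrophages. That is 2.34-fold lower in high-fat macrophages, and the arrays did not overlap. Ms4a6d, the VSIG4 partner, had 8.92 and 8.83 in high-fat macrophages, against 9.63 and 9.50 in chow macrophages, a difference of -0.69 ± 0.10 or 1.61-fold. Ms4a8a was the exception, with 7.71 and 7.55 in high-fat macrophages and 7.72 and 7.59 in chow macrophages. Its arrays overlapped and its difference was -0.03 ± 0.12. Lower signals were called for 6 of the 7 genes, all but Ms4a8a, where 5.82% of all genes were called lower. The median difference of the 7 was -2.45, against -0.01 over all genes. Since the list was chosen with this contrast in view, nothing is read from these counts.

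**Figure D1:**
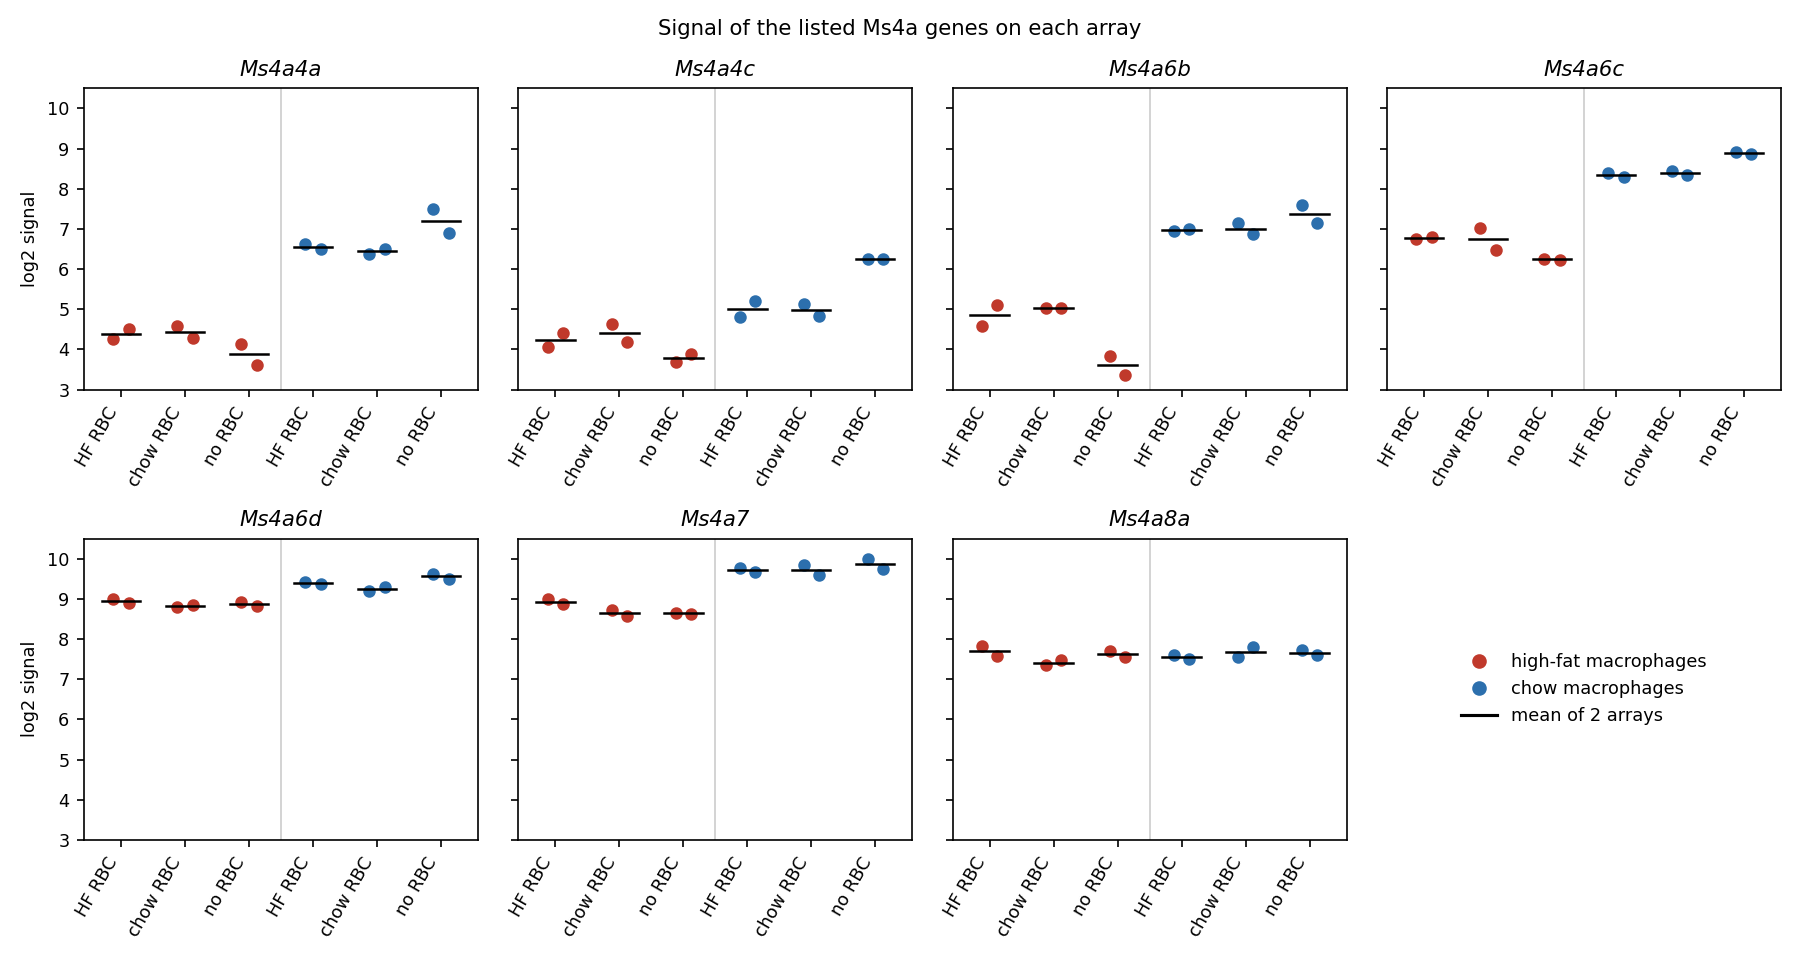
Log2 signal (vertical axis) of the 7 listed genes on each of the 12 arrays, by macrophage diet and RBC given, with a point per array and a bar at the mean of the 2 arrays of a group. Ms4a6b lies between 3.37 and 5.11 in high-fat macrophages and between 6.87 and 7.58 in chow macrophages, and Ms4a8a overlaps between diets.

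With RBC the diet difference was smaller, and the same 6 genes were called lower in high-fat macrophages, averaged over both kinds of RBC, where 2.65% of all genes were called lower. Ms4a4a had 4.27 and 4.52 with high-fat RBC and 4.57 and 4.28 with chow RBC in high-fat macrophages. In chow macrophages it had 6.62 and 6.49 with high-fat RBC and 6.38 and 6.50 with chow RBC. Its diet difference of -2.09 ± 0.14 was 37.0% smaller than without RBC, and the diets stayed apart on every array. Ms4a6b had 4.58 and 5.11 with high-fat RBC and 5.02 on both arrays with chow RBC in high-fat macrophages. In chow macrophages it had 6.945 and 6.998 with high-fat RBC and 7.14 and 6.87 with chow RBC. That left a difference of -2.06 ± 0.13, 45.4% smaller than without RBC.

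Ms4a6c had 6.75 and 6.80 with high-fat RBC and 7.02 and 6.47 with chow RBC in high-fat macrophages. Chow macrophages had 8.38 and 8.30 with high-fat RBC and 8.45 and 8.34 with chow RBC. No array of one diet reached the other, and the difference of -1.60 ± 0.10 was 39.4% smaller than without RBC. Ms4a4c, whose diet difference shrank most, had 4.06 and 4.40 with high-fat RBC and 4.63 and 4.18 with chow RBC in high-fat macrophages. In chow macrophages it had 4.81 and 5.21 with high-fat RBC and 5.12 and 4.83 with chow RBC. The highest high-fat array, at 4.63, lay just below the lowest chow array, at 4.81, and the difference of -0.68 ± 0.12 was 72.4% smaller than without RBC.

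Ms4a7 had 8.99 and 8.87 with high-fat RBC and 8.73 and 8.59 with chow RBC in high-fat macrophages. Chow macrophages had 9.76 and 9.67 with high-fat RBC and 9.84 and 9.60 with chow RBC. The difference of -0.92 ± 0.08 was 24.7% smaller than without RBC, the smallest such change among the 6 genes. Ms4a6d had 8.997 and 8.894 with high-fat RBC and 8.79 and 8.86 with chow RBC in high-fat macrophages. In chow macrophages it had 9.43 and 9.36 with high-fat RBC and 9.19 and 9.29 with chow RBC, and the difference was -0.43 ± 0.07. Ms4a8a had 7.82 and 7.57 with high-fat RBC and 7.35 and 7.47 with chow RBC in high-fat macrophages. Chow macrophages had 7.60 and 7.50 with high-fat RBC and 7.55 and 7.80 with chow RBC, so that its diets overlapped. Over all 12 arrays, the 6 high-fat arrays lay below the 6 chow arrays for 6 of the 7 genes, which held for 3.09% of all genes.

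**Figure D2:**
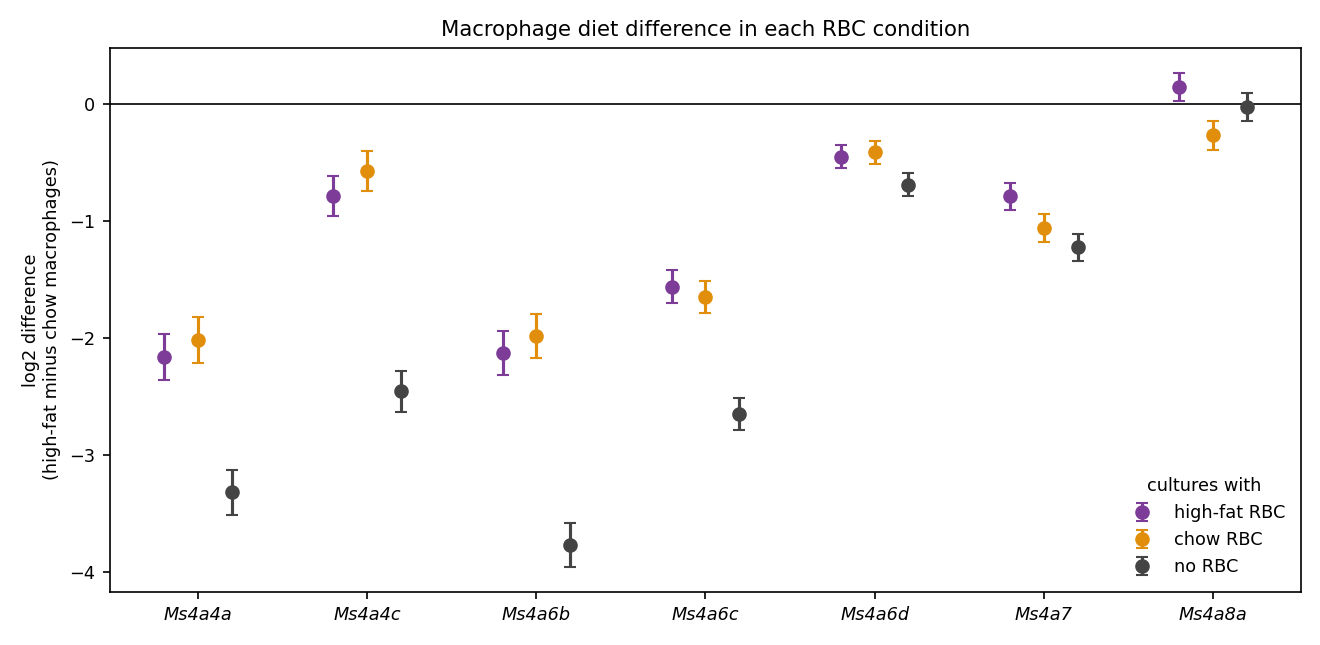
Log2 difference ± SE between high-fat and chow macrophages (vertical axis) for the 7 listed genes, with high-fat RBC, with chow RBC and without RBC. Ms4a4c reaches -2.45 without RBC and -0.78 and -0.57 with RBC, whereas Ms4a8a stays between -0.27 and 0.15.

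What RBC did to the level of a gene was asked within each macrophage diet. In high-fat macrophages, the mean with RBC exceeded that without by 1.34 ± 0.16 for Ms4a6b, a 2.52-fold difference. It exceeded it by 0.53 ± 0.17 for Ms4a4a, 0.53 ± 0.15 for Ms4a4c and 0.52 ± 0.12 for Ms4a6c. For these 4 genes, all 4 exposed arrays lay above both unexposed ones. The share of all genes that did so was not counted, so nothing is read from it. Ms4a7, Ms4a6d and Ms4a8a differed by 0.15 ± 0.10, 0.01 ± 0.08 and -0.08 ± 0.10, with exposed arrays on both sides of the unexposed. Only Ms4a6b of the 7 was called higher, where 0.878% of all genes were. The median of the 7 was 0.52, against 0.00 over all genes, and it was 0.26 without the second unexposed high-fat array. Without the second high-fat array given chow RBC, Ms4a6c was called as well.

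In chow macrophages the same comparison ran the other way. Ms4a4c was 1.25 ± 0.15 log2 units lower with RBC, and Ms4a4a and Ms4a6c differed by -0.70 ± 0.17 and -0.52 ± 0.12. Ms4a6b differed by -0.38 ± 0.16 and Ms4a6d by -0.25 ± 0.08. For these 5 genes, all 4 exposed arrays lay below both unexposed ones, and here too the share of all genes was not counted. Ms4a7 and Ms4a8a differed by -0.16 ± 0.10 and -0.05 ± 0.10, and 2 of their exposed arrays lay below both unexposed ones. The calls took in 3 of the 7 genes, Ms4a4a, Ms4a4c and Ms4a6c, where 4.51% of all genes were called lower. The median of the 7 was -0.38, against -0.03 over all genes. Much of this rests on the first unexposed chow array. Without it Ms4a4a differed by -0.40, only Ms4a4c was called and the median was -0.18. Without the second unexposed chow array, Ms4a6c was not called.

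The difference between the responses, high-fat minus chow, was 1.78 ± 0.21 for Ms4a4c and 1.71 ± 0.23 for Ms4a6b. It was 1.23 ± 0.24 for Ms4a4a and 1.04 ± 0.17 for Ms4a6c. Those 4 genes were called, where 2.57% of all genes were called higher. Ms4a7 and Ms4a6d had 0.30 ± 0.14 and 0.26 ± 0.12, and Ms4a8a -0.04 ± 0.15. The 4 genes whose exposed arrays all lay above the unexposed in high-fat macrophages and all below them in chow macrophages were the same 4, and 1.78% of all genes had that pattern. The diet difference without RBC and both responses share the unexposed arrays, so they are not separate observations.

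**Figure D3:**
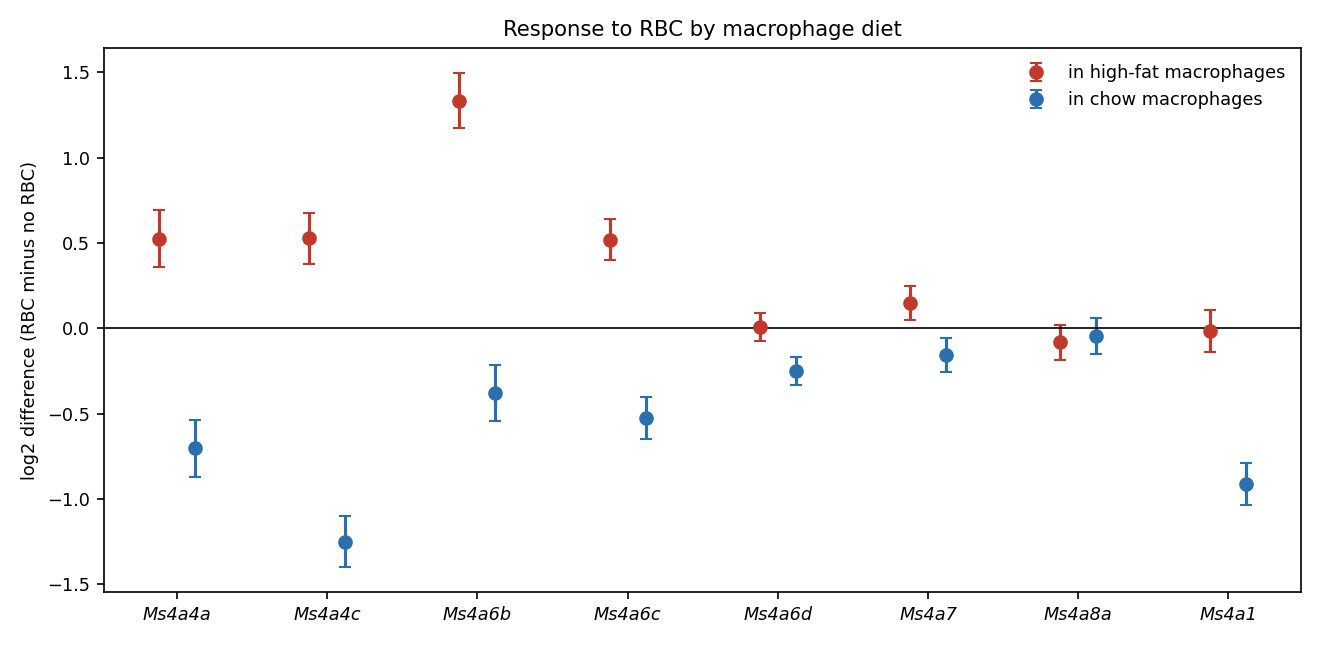
Log2 difference ± SE between cultures with RBC, averaged over both kinds, and cultures without (vertical axis), for the 7 listed genes and Ms4a1, with high-fat macrophages left of chow macrophages. Ms4a4a, Ms4a4c, Ms4a6b and Ms4a6c lie above 0 in high-fat macrophages and below 0 in chow macrophages, while Ms4a8a is near 0 in both.

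The diet of the RBC donor went with small differences. With both macrophage diets averaged, high-fat RBC minus chow RBC lay between -0.11 ± 0.13 for Ms4a6b and 0.14 ± 0.07 for Ms4a6d. Within high-fat macrophages, Ms4a8a and Ms4a7 were higher by 0.29 ± 0.12 and 0.27 ± 0.12 with high-fat RBC.

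The order of the 6 groups was alike for Ms4a4a, Ms4a4c, Ms4a6b and Ms4a6c. From high to low it ran chow macrophages without RBC, chow macrophages with RBC, high-fat macrophages with RBC and high-fat macrophages without RBC, and arrays of neighbouring steps did not overlap. Chow RBC and high-fat RBC overlapped within each macrophage diet. For Ms4a6d the chow groups stood in the order no RBC, high-fat RBC and chow RBC without overlap, above the high-fat groups. Among the high-fat groups, the arrays given high-fat RBC lay above those given chow RBC, and each pair overlapped the unexposed arrays. For Ms4a7 the 3 chow groups overlapped and lay above the high-fat groups, of which the one given high-fat RBC stood above the others. For Ms4a8a the only neighbours that did not overlap were the lowest 2, chow macrophages with high-fat RBC and high-fat macrophages with chow RBC.

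The other 12 Ms4a genes on the array, with the related Tmem176a and Tmem176b, were tested, since they are not on the list. The 12 are what a choice by level left over, so their count of calls is no independent measure of the family. Of them, Ms4a20, Ms4a19, Ms4a13, Ms4a12, Ms4a5, Ms4a4b, Ms4a4d, Ms4a2 and Ms4a3 lay between 2.27 and 4.32 on all arrays. That is below the median signal of every array, and whether a fall could be seen there was not tested. Ms4a1, the CD20 gene, was the 1 of 14 called without RBC, where 13.9% of all genes were called in either direction. The count ranged from 1 to 3 with single arrays left out, through Ms4a10 and Tmem176a. It was 3 without either chow array given chow RBC, and 2 without either high-fat array given chow RBC or without the first unexposed high-fat array. Ms4a1 had signals of 3.10 and 3.25 in high-fat macrophages and of 4.53 and 4.51 in chow macrophages, and so fell by 1.35 ± 0.14 (limma adjusted p = 1.3e-05). Its signals lay between 2.96 and 4.53 over all arrays, below the median signal of every array. Whether its level in high-fat macrophages was above background, so that a further fall could be seen, was not tested. In chow macrophages Ms4a1 fell with RBC, by 0.91 ± 0.12 (adjusted p = 2.1e-04). In high-fat macrophages it differed by -0.01 ± 0.12 with RBC (adjusted p = 0.98), and its responses differed by 0.90 ± 0.17 (adjusted p = 0.0066). With RBC, Ms4a1 and Tmem176a were the 2 of 14 called between macrophage diets, both lower, where 2.65% of all genes were called lower. Ms4a1 had a difference of -0.45 ± 0.10 (adjusted p = 0.017) and Tmem176a one of -0.33 ± 0.08 (adjusted p = 0.034). Neither is firm. The call of Ms4a1 was lost without the first chow array given chow RBC (adjusted p = 0.088), the first chow array given high-fat RBC (0.086), the first high-fat array given chow RBC (0.065) or the second high-fat array given high-fat RBC (0.063). That of Tmem176a was lost without any of 7 of the 8 arrays given RBC, the first chow array given chow RBC being the exception (adjusted p = 0.086 to 0.12).

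B cell markers moved with Ms4a1. In counts of markers and of other gene lists from here on, rose and fell mean called higher or lower. Of all 19938 genes, 1619 rose and 1161 fell in high-fat macrophages without RBC. With RBC, 175 rose and 40 fell in high-fat macrophages, and 1639 rose and 900 fell in chow macrophages. Of 7 B cell markers measured of 8 listed, Ms4a1 included, 6 fell and 1 rose in high-fat macrophages without RBC. With RBC, 5 fell in chow macrophages. Both counts of B cell markers that fell were smaller without the second unexposed chow array. The summed signal of the B cell markers, on the linear scale, was 402 to 408 in high-fat macrophages and 434 to 508 in chow macrophages without RBC. The part of B cells in the values of Ms4a1 and of the listed genes was not tested. Markers of neutrophils and platelets moved with RBC. In high-fat macrophages the summed signal of the 8 neutrophil markers was 2736 to 4639 with RBC and 1471 to 1668 without, and in chow macrophages 3141 to 3761 with RBC and 1740 to 1884 without. That of the 5 platelet markers measured was 1324 to 1869 with RBC and 894 to 900 without in high-fat macrophages, and 2135 to 2811 with RBC and 2012 to 2084 without in chow macrophages. In each macrophage diet 5 of 8 neutrophil and 3 of 5 platelet markers rose with RBC, and 1 neutrophil marker fell in chow macrophages. Both kinds of marker also moved with macrophage diet: without RBC, 4 of 8 neutrophil markers and 2 of 5 platelet markers fell in high-fat macrophages. The platelet count was 1 without the first unexposed chow array or the second unexposed high-fat array. Of 5 erythroid markers measured, 1 rose with RBC in high-fat macrophages and 2 in chow macrophages. Without the first unexposed high-fat array, the erythroid count in high-fat macrophages was 0. In chow macrophages it was 1 without either unexposed array or without the second array given high-fat RBC. Their summed signal with RBC was 165 to 309 in high-fat macrophages and 163 to 196 in chow macrophages, against 149 to 150 and 137 without. The part of these cells in the values of the listed genes was not tested. The neutrophil markers were at their highest, 4404 to 4639, in high-fat macrophages given high-fat RBC.

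Along chromosome 19, the genes that differed between diets without RBC formed no unbroken run. The order of the reference annotation is Ms4a1, Ms4a5, Ms4a7, Ms4a4a, Ms4a4c, Ms4a4b, Ms4a6c, Ms4a6b, Ms4a4d, Ms4a6d and Ms4a2, with the 6 lower genes from Ms4a7 to Ms4a6d. Between them, Ms4a4b differed by -0.12 ± 0.12 and Ms4a4d by -0.21 ± 0.11 (adjusted p = 0.61 and 0.29). Both lay below the median signal of every array, and whether a fall could be seen there was not tested. Ms4a8a lies apart from these, on the far side of Ms4a1. Of the other 12 Ms4a genes 1 was called, and of the 11 other genes between the fifth before and the fifth after the family 4 were, 2 lower (AW112010 and Ccdc86) and 2 higher (Tmem109 and Mrpl16) in high-fat macrophages. Of all genes, 13.9% were called in either direction. AW112010, a long non-coding RNA gene that neighbours Ms4a8a and was picked after its values were seen, had the largest difference in this stretch. Without RBC it had 4.33 and 4.81 in high-fat macrophages and 9.09 and 8.73 in chow macrophages, and fell by 4.34 ± 0.22 (limma adjusted p = 8.4e-09). With RBC it fell in chow macrophages, by 1.30 ± 0.19 (adjusted p = 4e-04), and was 0.64 ± 0.19 higher in high-fat macrophages (adjusted p = 0.18). Its responses differed by 1.94 ± 0.27 (adjusted p = 5.3e-04).

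**Figure D4:**
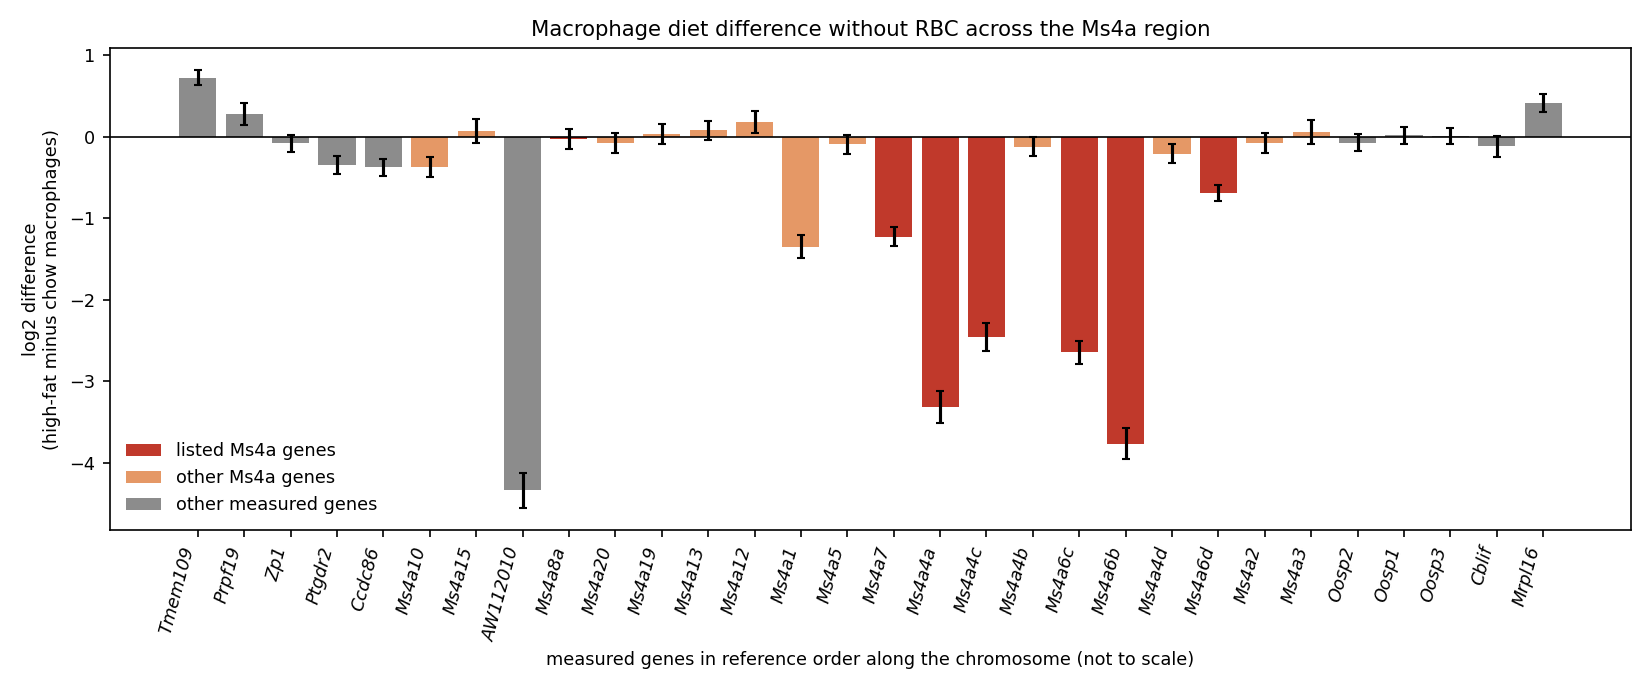
Log2 difference between high-fat and chow macrophages without RBC (vertical axis, bars ± SE) for 30 measured genes in their order on chromosome 19 (horizontal axis, not to scale), with listed genes, other Ms4a genes and neighbours marked. Ms4a4b lies near 0 between Ms4a4c at -2.45 and Ms4a6c at -2.65, Ms4a4d near 0 between Ms4a6b at -3.77 and Ms4a6d at -0.69, and AW112010 beside Ms4a8a is lowest at -4.34.

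Which genes ran most alike to each listed gene was described by Pearson's r over the 12 arrays, among 1013 genes outside the family with an SD of at least 0.3. The arrays fall into separate sets by macrophage diet, so these values describe that split and no test is attached. Ms4a4a was nearest to Ifitm3, an interferon-induced membrane protein (r = 0.995), Ccl5, a chemokine, and Ifi27l2a (0.987 each). Ms4a6b was nearest to Oasl2 (0.994), Irf7, a regulator of interferon genes, and Ell2 (0.989 each). Ms4a6c was nearest to H2-M2 and Ccl5 (0.994 each) and Cav1 (0.991), and Ms4a4c to the chemerin receptor Cmklr1 (0.98), Usp18 (0.977) and Oas2 (0.976). Ms4a6d was nearest to the IL-18 antagonist Il18bp (0.978), the chemokine Cxcl9 (0.973) and Bst2 (0.972). Ms4a7 was nearest to the immunoproteasome subunit Psmb8 (0.987), Cav2 (0.985) and Clec4a1 (0.984). Ms4a8a had no close match, its highest r being 0.732 with the histone gene H3c15. Its own SD over the 12 arrays was 0.139, below the 0.3 asked of the genes searched. With so little variation, its low r says little about likeness.

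Lists of genes from general knowledge, chosen with earlier results of these data known, give the setting in which the family moved. Apart from Clec7a and Trem2, the genes given with a p-value have the lowest p of their list in the difference between responses. Those p-values therefore belong to selected genes. Of 18 interferon-stimulated genes measured of 20, all 18 fell in high-fat macrophages without RBC, with a median of -2.27 log2 units. With RBC, 12 of the 18 were called higher in high-fat macrophages (median 0.59), where 0.878% of all genes were. In chow macrophages 17 were called lower (median -0.91), where 4.51% of all genes were. All 18 lay above 0 in high-fat macrophages and below 0 in chow macrophages. The count of 12 was 6 without the second high-fat array given high-fat RBC. The difference between responses was called higher for 17 of the 18, where 2.57% of all genes were. Ifi205 had 3.33 ± 0.14 (limma adjusted p = 1.2e-08) and Rtp4 3.48 ± 0.23 (adjusted p = 1e-06). Ifit1 and Ifit3, of a family of antiviral proteins, had 3.55 ± 0.24 (adjusted p = 1.1e-06) and 3.64 ± 0.27 (adjusted p = 2.6e-06).

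Among 16 genes of glucocorticoid response and alternative activation, 9 fell and 1 rose in high-fat macrophages without RBC. The response to RBC was higher in high-fat than in chow macrophages for 5 and lower for 1, and the 5 were 3 without either of the unexposed chow arrays or without the second chow array given high-fat RBC. Tgm2, a transglutaminase, had a difference between responses of 1.27 ± 0.18 (limma adjusted p = 6.3e-04) and Il4ra, the receptor chain for IL-4, one of 0.83 ± 0.11 (adjusted p = 5.4e-04). Mrc1, the mannose receptor, had -0.62 ± 0.12 (adjusted p = 0.0067).

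Of 12 receptors and signalling partners, 3 rose and 3 fell in high-fat macrophages without RBC. Clec7a, which encodes Dectin-1, differed by 0.14 ± 0.10 there (limma adjusted p = 0.45). Trem2, a lipid receptor whose soluble form has been tied to the human MS4A locus, rose by 0.63 ± 0.10 (adjusted p = 7.4e-04). In chow macrophages Clec7a was higher with RBC than without, by 0.62 to 0.68 when single arrays were left out. The difference between responses to RBC was called higher for 2 of the 12 and lower for 2, all 4 of them IgG receptors. It was -0.78 ± 0.14 for Fcgr4 and -0.55 ± 0.13 for Fcgr3 (adjusted p = 0.0033 and 0.022), and 0.57 ± 0.13 for Fcgr1 and 0.50 ± 0.13 for Fcgr2b (adjusted p = 0.019 and 0.033). Fcgr4 alone stayed called with each array left out. The calls of Fcgr1 and Fcgr3 were both lost without either unexposed chow array or the second unexposed high-fat array, and that of Fcgr3 also without either chow array given high-fat RBC or the second high-fat array given chow RBC. That of Fcgr2b was lost without any of 9 of the 12 arrays (adjusted p = 0.051 to 0.14). Of 6 monocyte genes measured of 8, 4 fell in high-fat macrophages without RBC. That count was 1 without the first unexposed chow array and 2 without the second, and 2 without the second unexposed high-fat array. Of 8 macrophage markers measured of 9, Mertk rose and Adgre1, Csf1r, Fcgr1 and Cd14 fell in high-fat macrophages without RBC. The count of markers that rose was 0 without the second unexposed chow array or the second unexposed high-fat array, and 2 without the first unexposed high-fat array. The summed signal of the 8 was 12861 to 13751 in high-fat macrophages and 15511 to 15601 in chow macrophages without RBC. The part of macrophage number or state in the values of the family was not tested.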

How the data were processed

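Transcripts were measured on 12 mouse arrays in 6 groups of 2. The authors deposited a log2 signal for every probe set on each array. The scale was inferred from the range of the values, and the summarization, normalization and build are not given in the sources used here. Per the labels' protocols, total RNA was isolated with RNeasy columns, then amplified with the Ovation FFPE kit and labelled with biotin. Of 35556 probe sets with values, the 21789 with a single symbol in the platform annotation were kept. The probe set with the highest mean stood for each of the 999 genes with several, which left 19938 genes, and no filter on low values was applied. Each Ms4a gene had 1 probe set. Raw intensities were not analysed here, and precision is limited by having 2 arrays in a group.

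Models were fitted by lmFit and moderated by eBayes, from limma 3.58.1 (R 4.3.3), with 1 mean per group, 6 residual and 7.69 prior degrees of freedom. For each of 14 contrasts, p-values were adjusted by Benjamini-Hochberg over all genes. The procedure was tested on simulated data. The listed genes, the gene and marker lists, and the contrasts were chosen with earlier results of these data known. Values are given for all 7 listed genes, for other family members called in any comparison, for the 3 genes most correlated with each listed gene and for up to 4 genes of a list by p in the difference between responses; Trem2, Clec7a and AW112010 were added. Summed marker signals are sums of 2 to the power of the log2 signal. Alternatives were quantile normalization, a filter on genes with low means, robust eBayes with an intensity trend, weights for arrays, averaging over probe sets, only the groups compared, the animal number as a block, an adjusted p below 0.10, and leaving out each array. Promoters are from RefSeq, and gene order is from the RefSeq annotation. No proteins were compared.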

Additional observations from a re-analysis of the deposited data

Results flagged for a closer look

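For 4 of the listed genes, all 4 exposed arrays of high-fat macrophages lay above the unexposed ones and all 4 exposed arrays of chow macrophages lay below them. Of all genes, 1.78% had that pattern. The difference between responses was 1.78 for Ms4a4c, 1.71 for Ms4a6b, 1.23 for Ms4a4a and 1.04 for Ms4a6c on the log2 scale. These genes were chosen with the values known, so their differences are a description. They were called in the fit over all genes, and beyond those calls the difference was not tested. Ms4a1 was called by the test of the difference between responses in limma, with 0.90 ± 0.17 (adjusted p = 0.0066). Its signals lay between 2.96 and 4.53, below the median of every array. Whether a fall in high-fat macrophages could be measured at that level was not tested. The signals of Ms4a4c, Ms4a6b and Ms4a4a in high-fat macrophages without RBC also lay below the median of every array.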

How the results depend on the processing

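There were 9 settings other than leaving out an array and 12 that leave one out. Across these, apart from the adjusted p below 0.10, which changes calls alone, 840 differences of the 7 listed genes were recomputed. Of these, 24 moved by more than the spread between replicates, all on leaving out an array, and 0 called differences changed sign. With 1 probe set per Ms4a gene and 1 mean per group, most settings cannot move a difference. Only quantile normalization, array weights and leaving out an array can. The other settings can change calls alone, so their unmoved differences say nothing about stability. In high-fat macrophages with RBC against none, 1 listed gene was called, and 2 were with a filter on genes of low mean, with the trend and robust eBayes, or at an adjusted p below 0.10. Over all genes, that comparison gave 215 calls, and 101 with array weights, 92 with only the groups compared and 336 at an adjusted p below 0.10. High-fat against chow RBC gave 2 calls, and 11 with the trend and robust eBayes, 5 with array weights and 7 at an adjusted p below 0.10. The diet difference without RBC gave 2780 calls and 1777 with only the groups compared, and RBC in chow macrophages 2539 calls and 3919 at an adjusted p below 0.10. Ms4a6d in chow macrophages with RBC was called with array weights, with the trend and robust eBayes, and with the filter. The 12 interferon-stimulated genes that rose in high-fat macrophages with RBC were 6 under array weights or with only the groups compared. Quantile normalization raised the other family genes called without RBC to 3, with Ms4a10 and Tmem176a. In each case the cause was not tested.

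Leaving out 1 array at a time, the median over the 7 genes lay between -2.55 and -2.36 for the diet difference without RBC and between -0.98 and -0.86 with RBC. It lay between 0.26 and 0.60 for RBC in high-fat macrophages, -0.55 and -0.18 for RBC in chow macrophages, 0.91 and 1.18 for the difference between responses, and -0.03 and 0.12 for the diet of the RBC. Listed genes called ranged from 1 to 2 for RBC in high-fat macrophages and 1 to 3 in chow macrophages, and stayed at 6, 6 and 4 for the diet difference without and with RBC and the difference between responses. Calls over all genes ranged from 1600 to 2746 and 564 to 1199 for the diet difference without and with RBC. They ranged from 120 to 652 for RBC in high-fat macrophages, 956 to 3093 in chow macrophages, 558 to 1115 for the difference between responses and 1 to 4 for the diet of the RBC.

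The animal numbers were not shown to pair the arrays, since deviations of same-numbered arrays from their group means correlated between -0.23 and 0.34 over pairs of groups. With the replicate block within each macrophage diet, calls for high-fat against chow RBC were 1, and Tmem176a with RBC was no longer called (adjusted p = 0.05), while Ms4a10 was called in the diet difference without RBC (adjusted p = 0.043 against 0.05). No call of a listed gene changed with the block, within diets or over all groups.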
